A study of Homo sapiens with 12 samples.

Results

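CD274, PDCD1LG2, CD276 and IDO1, genes by which a cell can restrain T cells, were examined in a pair of human squamous carcinoma lines after KLF5, a zinc-finger transcription factor of epithelial cells, had been silenced or overexpressed. They are 4 of 57820 genes in the files and were picked by name, with earlier results of the same libraries known. Their differences between groups are therefore given as descriptions without a test. All 4 passed the filter on low values in BICR31, IDO1 by its level with siKLF5. In HCC95 only CD274 and CD276 passed, and IDO1 and PDCD1LG2 are given by their counts.

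BICR31, a head and neck squamous cell carcinoma line, had been treated with siRNA directed at KLF5 (siKLF5) or with siNC as its control, in 3 libraries each. HCC95 is derived from a lung squamous cell carcinoma and overexpressed KLF5 from a wild-type construct (WT), the missense form E419Q, or carried the vector alone (Empty), in 2 libraries each. RNA selected for poly(A) tails was sequenced in all 12 libraries, and the labels name no other cells in the cultures. Which vectors and siRNA were used, and how long cells were kept, is not stated in the labels. Nor is it stated that replicates were separate cultures, and p-values then reflect only the spread among these libraries, possibly a technical one.

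CD274 encodes PD-L1 and PDCD1LG2 encodes PD-L2, the ligands of the receptor PD-1 on T cells, and binding dampens the T cell's response. CD276 encodes B7-H3, a related surface protein of many carcinomas whose receptor is not settled. IDO1 is an intracellular enzyme that starts the breakdown of tryptophan to kynurenine, and both the loss of tryptophan and the kynurenine formed restrain T cells. Interferon gamma, which signals from its receptor through the kinases JAK1 and JAK2 to a STAT factor and then IRF1, is the classical inducer of CD274, PDCD1LG2 and IDO1.

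The sequences just upstream of CD274 and CD276 are shown because these members passed the filter in both lines and their control regions differ in the 2 motif classes that bear on KLF5 and interferon. Each run holds the 250 bases before the transcription start, 5′ to 3′, from RefSeq's GRCh38.p14 annotation, a later build than the hg19 of the files. Capitals mark matches on either strand to GAAANNGAA, a core of interferon response elements (its reverse is TTCNNTTTC), and to GGGCGG, the GC box bound by zinc-finger factors of the SP and KLF families (its reverse is CCGCCC).
CD274, chr9:5450292-5450541, plus strand: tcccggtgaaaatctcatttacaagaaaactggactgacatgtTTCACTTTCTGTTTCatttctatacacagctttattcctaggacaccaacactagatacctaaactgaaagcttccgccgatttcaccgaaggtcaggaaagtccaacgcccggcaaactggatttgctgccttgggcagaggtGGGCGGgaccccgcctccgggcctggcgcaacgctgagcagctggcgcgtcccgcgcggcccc
CD276, chr15:73684133-73684382, plus strand: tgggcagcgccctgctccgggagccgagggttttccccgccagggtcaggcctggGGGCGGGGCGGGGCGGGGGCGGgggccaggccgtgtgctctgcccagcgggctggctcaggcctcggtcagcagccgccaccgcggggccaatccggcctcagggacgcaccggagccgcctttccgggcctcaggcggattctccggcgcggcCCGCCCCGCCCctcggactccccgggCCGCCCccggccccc

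Upstream of CD274 a pair of overlapping interferon response matches lay 207 to 199 and 201 to 193 bases before the start, and 1 GC box lay 63 to 58 bases before it. A match to TTCNNNGAA, the form bound by STAT factors, lay 125 to 117 bases before the start and is not capitalised. The CD276 window had 7 GC boxes, some overlapping, and no interferon response match, and its GC content was 80.8% against 54.8% for CD274. RefSeq also lists a downstream start of CD276, whose window had 2 GC boxes. Neither gene's window held CACCC, another KLF-type motif, or TGANTCA, the AP-1 form. Of 35116 promoter windows of this length, 6.88% held the interferon form, 6.57% the STAT form, 6.57% the AP-1 form, 42.6% the GC box and 54.7% CACCC. A match to a short motif describes the letters only. No entry was found for PDCD1LG2.

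Levels in BICR31 are units of a deposited normalised signal, in which 1 count was worth 7.87 to 9.12 units, so counts given for this line are estimates. Levels in HCC95 are CPM, counts scaled to a common total. The libraries held 1922360 to 2296190 estimated counts in BICR31 and 3074140 to 4643790 counts in HCC95, so that 3 counts equal 23.6 to 27.4 units or 0.646 to 0.976 CPM. KLF5 itself stood at 2530 ± 211 units with siNC and 959 ± 67.5 with siKLF5 (SD, n = 3), and at 143 ± 9.77, 412 ± 11.3 and 435 ± 10.3 CPM (SD, n = 2) with Empty, WT and E419Q. RSEM's effective length for KLF5 averaged 2349, 1389 and 1398 bases in these groups. In TPM, which divides by that length, KLF5 averaged 88.2, 420 and 446, so the size of its rise depends on the scale. Between siKLF5 and siNC 26.1% of 15710 tested genes were called at an adjusted p under 0.05 with limma (15.3% higher, 10.8% lower). With edgeR and 12933 genes tested, 22.9% were called for WT against Empty (10.8% higher, 12.1% lower), 21.2% for E419Q against Empty (10.4% higher, 10.8% lower) and 8% for E419Q against WT (4.41% higher, 3.59% lower). Raised genes made up 58.7% of the calls with siKLF5, and 48.5% after quantile normalisation. Squamous epithelium markers summed to 7101 to 7166 CPM per library with siNC and 5231 to 5449 with siKLF5. In HCC95 they summed to 17395 to 17882 CPM with Empty, 19816 to 20411 with WT and 14151 to 14824 with E419Q. Of 17 immune cell markers 7, among them CD3D, CD3E and TYROBP, had 0 counts in all 12 libraries.

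The PD-1 ligands came first. In BICR31 CD274 (ENSG00000120217.9) read 54.5, 54.7 and 36.1 units in siNC A, B and C and 65.7, 83.3 and 63.0 units in siKLF5 A, B and C. Every siKLF5 library lay above every siNC library, but these levels rest on 4 to 6 counts a library with siNC and 8 to 10 with siKLF5. The means were 48.5 ± 10.7 and 70.7 ± 11.0 units (SD, n = 3), a log2 difference of 0.55 (SE 0.445). On counts relative to library totals, 26 against 16 gave a ratio of 1.42 (95% counting interval 0.731 to 2.82), so a difference of this size was not detectable at this depth. Counting intervals here are exact, condition on the summed counts and cover counting error only.

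In HCC95 CD274 was at 5.50 and 6.68 CPM in Empty A and B, 0.569 and 0.501 CPM in WT A and B, and 3.25 and 1.78 CPM in E419Q A and B. The 3 groups did not overlap: Empty was highest, E419Q between, and WT lowest with 2 counts in each library. How many of all tested genes separate by group was not counted in either line, so no such separation of a member is set against a background. The means were 6.09 ± 0.832, 0.535 ± 0.0479 and 2.52 ± 1.04 CPM (SD, n = 2). CD274 was thus 10.99-fold lower with WT than with Empty in the fit (log2 difference -3.46, SE 0.564). On summed counts per library total, 4 against 50, it was 11.6-fold lower (95% counting interval 4.25 to 44.2). With E419Q, at 16 counts against 50, it was 2.48-fold lower than with Empty (counting interval 1.39 to 4.67). The fitted fall with E419Q was 2.50-fold (log2 difference -1.32, SE 0.424). Without E419Q A this log2 difference was -1.80, and without E419Q B it was -0.94.

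For E419Q against WT, between which the KLF5 transcript differed by a fold of 1.04 (95% interval 0.954 to 1.14), the members' values are again a description, since both sets of libraries took part in the choice of members. CD274 was 4.40-fold higher with E419Q than with WT (log2 difference 2.14, SE 0.705, 95% interval of the fold 1.59 to 12.1), and both E419Q libraries lay above both WT libraries. Without E419Q A the log2 difference was 1.66, and without E419Q B it was 2.52.

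The size of the CD274 fall depends on whether counts are read per length. RSEM's effective length for the gene, which follows the transcripts to which it assigns the reads, was 3427 and 1427 bases in Empty A and B, 514 and 519 bases in WT and 1507 and 1053 bases in E419Q. In TPM, which divides by that length, CD274 read 2.31 and 6.83 with Empty, 1.56 and 1.37 with WT, and 3.11 and 2.42 with E419Q. WT still lay lowest in TPM, but Empty A fell below both E419Q libraries, so Empty and E419Q overlapped. The differences in mean log2 TPM were -1.44 for WT, -0.53 for E419Q against Empty and 0.91 for E419Q against WT, an alternative added after the data were seen. With 2 counts a library in WT, the assignment to a short transcript rests on very few reads.

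**Figure D1:**
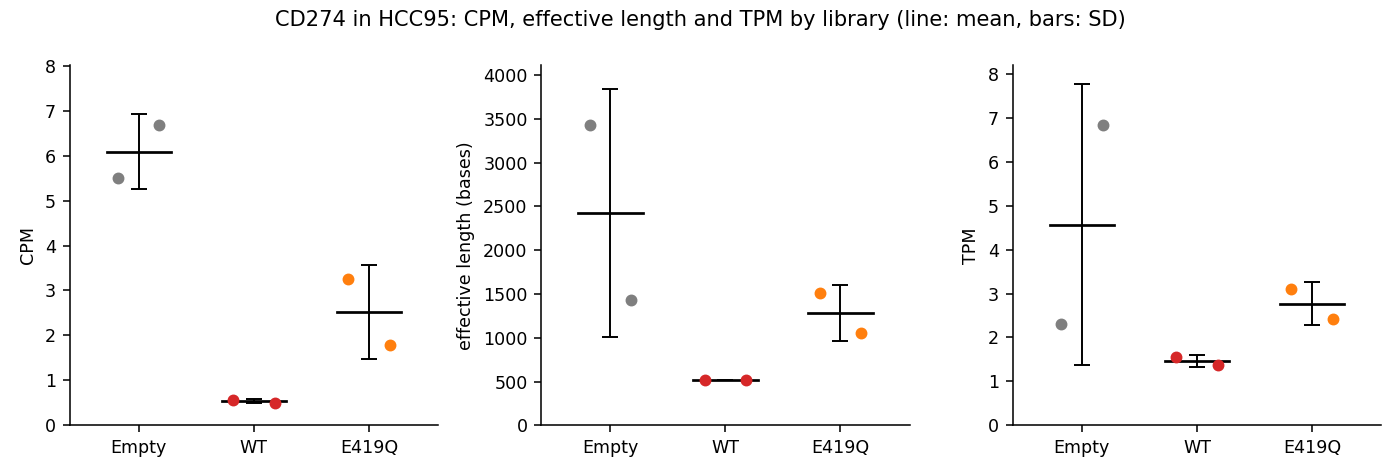
CD274 in the 6 HCC95 libraries by group (x axis), as CPM, as effective length in bases and as TPM (y axes), with 1 point per library, lines at means and bars for SD. WT is lowest on all 3 scales, and Empty A, at 5.50 CPM, has the longest effective length and falls to 2.31 TPM.

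PDCD1LG2 (ENSG00000197646.6) rests on fewer counts still. In BICR31 it read 9.09, 36.5 and 27.1 units in siNC A, B and C and 65.7, 50 and 39.4 units in siKLF5 A, B and C. The groups did not overlap, with siNC A, at 1 count, far below the rest. The summed counts were 19 against 8, a ratio of 2.07 (95% counting interval 0.865 to 5.46), and the log2 difference was 1.23 (SE 0.666). Without siNC A that difference was 0.67. In HCC95 the gene had 4 and 0 counts with Empty, 0 and 0 with WT, and 1 and 1 with E419Q. The 2 counts with E419Q against 4 with Empty gave a ratio of 0.629 (95% counting interval 0.0569 to 4.39), and no ratio is given for WT.

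CD276 (ENSG00000103855.13) was the abundant member. In BICR31 it read 3136, 3173 and 3062 units in siNC A, B and C and 4692, 4683 and 5276 units in siKLF5 A, B and C. All siKLF5 libraries lay above all siNC libraries, by more than the spread within either group. The level was 1.56-fold higher with siKLF5 (95% interval 1.42 to 1.71, log2 difference 0.64, SE 0.0637). In HCC95 CD276 read 121.9 and 136.3 CPM with Empty, 128.9 and 131.7 with WT, and 117.8 and 110.8 with E419Q. WT lay within the range of Empty, with a fold of 0.997 (95% interval 0.887 to 1.12), and both E419Q libraries lay below all others. The fold of E419Q against WT was 0.865 (95% interval 0.765 to 0.978). That interval leaves room for a fall of up to 1.31-fold.

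IDO1 (ENSG00000131203.8) differed most in BICR31. It read 9.09, 0 and 9.03 units in siNC A, B and C, that is 1, 0 and 1 counts, and 205, 150 and 118 units in siKLF5 A, B and C, that is 25, 18 and 15 counts. The siNC libraries were all at or under 1 count and the siKLF5 libraries all at 15 or more. The 58 counts against 2 gave a ratio of 25.3 (95% counting interval 6.69 to 214). A fitted log2 difference of 5.05 depends on the pseudocount (3.61 with a pseudocount of 8) and is no bound. It was 3.94 without siNC B, the library at 0 counts, and 5.61 without siNC A or without siNC C. In HCC95 IDO1 had 0 counts in all 6 libraries, which allows up to 0.370 CPM with Empty, 0.399 with WT and 0.466 with E419Q, taken over each group.

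**Figure D2:**
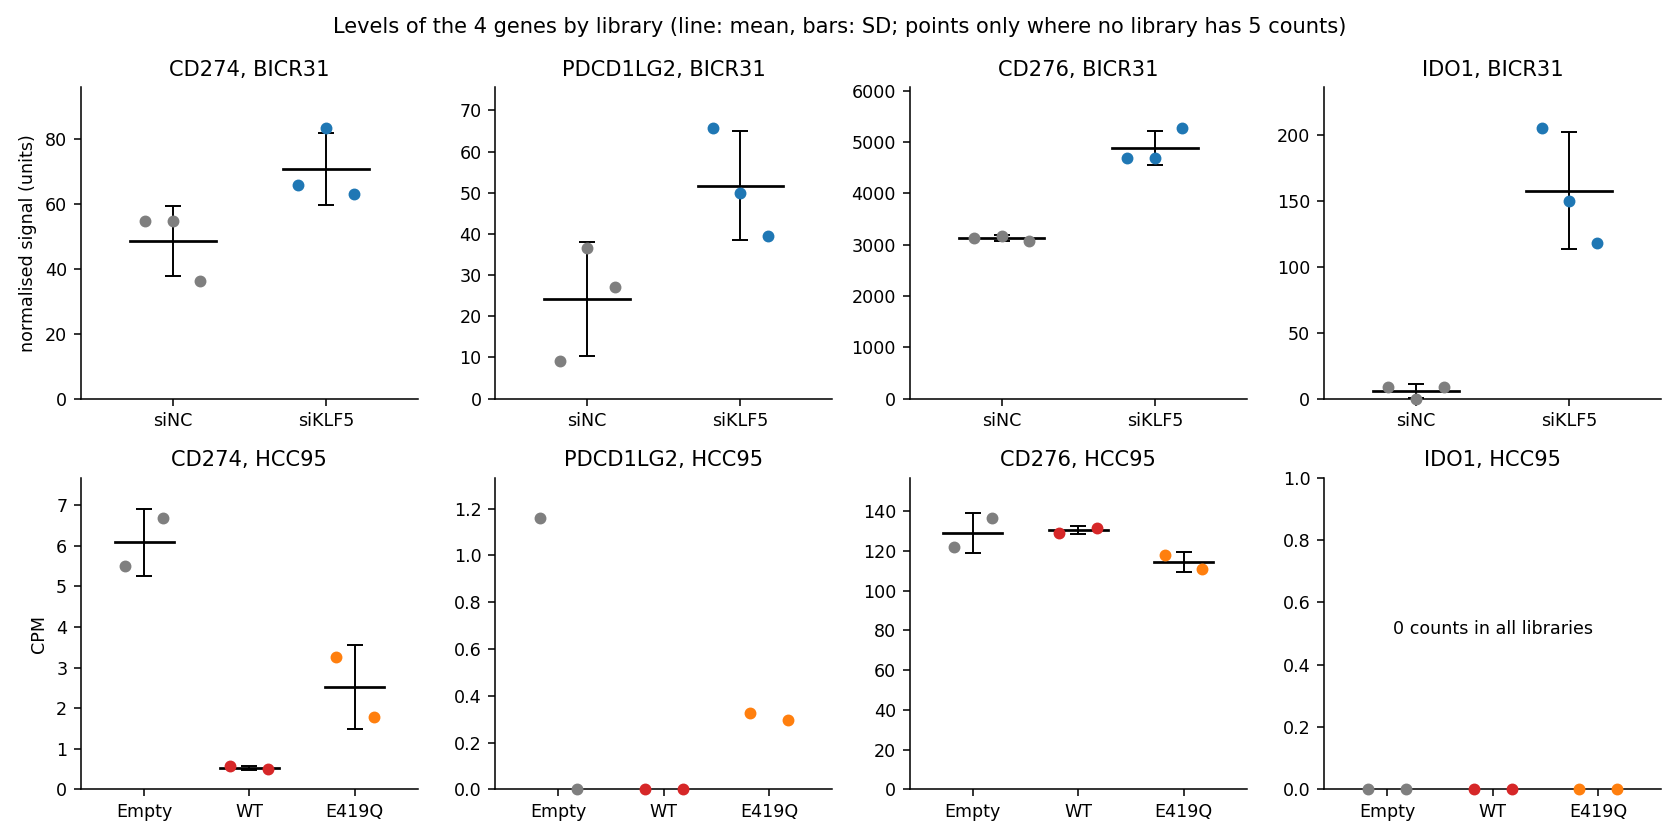
Levels of CD274, PDCD1LG2, CD276 and IDO1 by group (x axis) in BICR31 (upper row, normalised signal in units) and HCC95 (lower row, CPM), with 1 point per library, lines at means and bars for SD; points stand alone where no library reached 5 counts. The siKLF5 points lie above the siNC points in the upper panels, where CD274 and PDCD1LG2 rest on 1 to 10 counts a library. How many of all tested genes separate in this way was not counted. In the CD274 panel of HCC95 the WT points, at 0.569 and 0.501 CPM, lie below the rest.

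**Figure D3:**
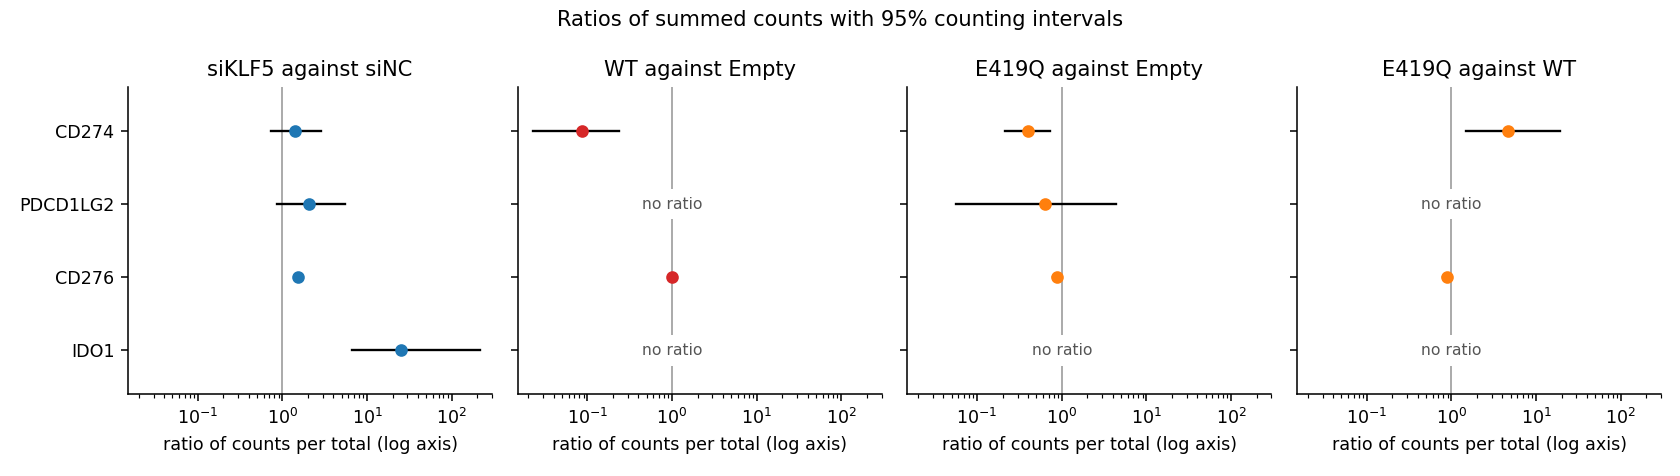
Ratio of summed counts per library total (x axis, log scale) for each member (y axis) in the 4 comparisons, with 95% counting intervals as lines; no ratio is drawn where a group had 0 counts. The IDO1 interval with siKLF5 (6.69 to 214) and the CD274 interval with WT (0.0226 to 0.235) lie farthest from 1, and the CD276 intervals are narrower than their points.

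Levels of different genes can be compared only per length. In units per kilobase of effective length, taken from the HCC95 files, CD276 stood 116-fold above PDCD1LG2 and 199-fold above IDO1 with siNC, and 85.1-fold and 11.9-fold above them with siKLF5. Per kilobase PDCD1LG2 (4.51 to 18.1 units) and IDO1 (0 to 10.5) overlapped with siNC, and with siKLF5 IDO1 (136.8 to 238) lay above PDCD1LG2 (19.5 to 32.6). In HCC95 IDO1 had 0 counts and PDCD1LG2 at most 4 a library, so their lengths rest on no or few assigned reads. The folds for both genes are uncertain for that reason. The place of CD274 also depends on its length, which differed between the HCC95 libraries. At the mean length CD276 stood 40.5-fold above CD274 with siNC and 43.4-fold with siKLF5, but 14.8-fold and 15.8-fold at the shortest length and 98.6-fold and 106-fold at the longest, an alternative added after the data were seen. At the mean length CD274 ranged from 25.7 to 38.9 units per kilobase with siNC and from 44.7 to 59.2 with siKLF5, between the other members. At the shortest length it ranged from 122.7 to 162 with siKLF5 and overlapped IDO1. At the longest it overlapped PDCD1LG2, with 10.5 to 16.0 units per kilobase with siNC and 18.4 to 24.3 with siKLF5. In HCC95 mean TPM was 81.6, 86.7 and 72.0 for CD276 and 4.57, 1.47 and 2.77 for CD274 with Empty, WT and E419Q.

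Among the genes whose levels, centred within each line, most resembled CD274 over all 12 libraries were CYR61, ADAM12, TNFRSF21 and MALL. Their root mean square distances from CD274 were 0.320, 0.351, 0.352 and 0.362 on the log2 scale, against a median of 0.741 over 12431 genes. TNFRSF21, a death receptor, averaged 397, 152 and 325 CPM with Empty, WT and E419Q, and 4410 and 6564 units with siNC and siKLF5. Over the 6 BICR31 libraries the genes most like IDO1 were IL17C, an epithelial cytokine (0.444), SERPINA3, an acute-phase protease inhibitor (0.700), SOGA3 (0.779), CCL2, a chemokine for monocytes (0.811), and RUNDC3A (0.829), against a median of 2.78 over 15709 genes. SERPINA3 averaged 59.7 units with siNC and 1479 with siKLF5, and IL17C 6.04 and 97.4 units. These distances are descriptions over libraries that share their groups.

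Other checkpoint ligands were read from a list of 27, of which 20 were tested in BICR31. The list holds costimulatory ligands such as ICOSLG beside ligands that restrain, and its counts do not separate these kinds. With siKLF5 11 rose and 1 fell, against 15.3% and 10.8% of all genes, and the median log2 change was 0.62 against 0.04 over all genes. ICOSLG, the ligand of the costimulatory receptor ICOS, rose from 878 ± 182 to 2207 ± 189 units (log2 change 1.35, SE 0.124, limma adjusted p = 4.28e-07). LGALS9, galectin-9, rose from 247 ± 40.2 to 802 ± 18.6 units (1.71, SE 0.159, limma adjusted p = 4.6e-07), though near-identical gene copies share its reads. VTCN1, which encodes B7-H4, rose from 69.4 ± 57.2 to 471 ± 113 units (3.01, limma adjusted p = 2.78e-05). PVRL2 (0.71), a ligand of TIGIT, and CD47 (0.69), the signal that restrains phagocytosis, rose as well. C10orf54, which encodes VISTA, fell from 1538 ± 48.0 to 939 ± 34.0 units (-0.71, limma adjusted p = 1.8e-05). Numbers in parentheses after a gene are its log2 fold change. All gene lists used here were chosen with earlier results of these libraries known. Their counts beside the shares of all genes are therefore descriptions, and the adjusted p-values of their genes are no independent support.

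The receptors of these ligands were mostly not seen. PDCD1, which encodes PD-1, CTLA4, CD28 and ICOS had 0 counts in all 12 libraries, and LAG3, TIGIT and CD96 had 5, 3 and 8 counts over the 6 BICR31 libraries. RGMB, a PD-L2 binding protein that epithelial cells also make, had 326 counts over the BICR31 and 400 over the HCC95 libraries. With limma 0 of 2 tested receptors were called in BICR31, with 0 at an unadjusted p under 0.05 and 0 by edgeR on the estimated counts. Over all genes tested in this line 26.1% were called. In HCC95 RGMB was the 1 receptor tested, and its fall with WT (-0.59, edgeR adjusted p = 0.0183) was lost by DESeq2 (0.263) and without Empty A (0.0538), Empty B (0.0538), WT A (0.121) or WT B (0.062).

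The route from interferon gamma to CD274 was read from 21 genes, 18 of them tested. IFNG, IFNB1 and IFNL1, the cytokines themselves, had 0 counts in all 12 libraries. In BICR31 8 genes rose with siKLF5 (15.3% of all genes rose) and 0 fell by limma, with 0 falls at an unadjusted p under 0.05 and 0 by edgeR on the estimated counts; the median log2 change was 0.44. IFNGR2, a chain of the interferon gamma receptor, rose from 645 ± 61.1 to 1295 ± 95.1 units (1.01, SE 0.113, limma adjusted p = 3.96e-06). IRF1, the transcription factor at the end of the route, rose from 1707 ± 160 to 2606 ± 273 units (0.61, SE 0.0915, limma adjusted p = 8.63e-05). IFNAR1 (0.58) and IFNGR1 (0.51), further receptor chains, JAK1 (0.46) and STAT2 (0.54) also rose. JAK2 had a log2 change of 0.46 that did not pass (limma adjusted p = 0.602), with 46 counts over 6 libraries.

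Genes that interferon gamma induces moved with IDO1 in BICR31. Of 26 listed 21 were tested, 16 rose with siKLF5 and 0 fell by limma, against 15.3% and 10.8% of all genes. There were 0 falls at an unadjusted p under 0.05 and 0 by edgeR on the estimated counts, and the median log2 change was 0.95. CXCL10, a chemokine for T cells, rose from 60.5 ± 29.1 to 705 ± 176 units (3.63, SE 0.343, limma adjusted p = 5.47e-07). GBP2, a guanylate-binding GTPase of cell defence, rose from 72.6 ± 32.8 to 580 ± 26.5 units (3.07, SE 0.282, limma adjusted p = 3.9e-07). GBP4 (2.10), GBP3 (0.95) and APOL6 (1.01) rose as well, and PSMB10 (0.83), a subunit of the immunoproteasome, rose from 1575 ± 69.8 to 2796 ± 136 units. The GBP genes are a family of similar sequence, so the division of reads among them is less certain. CIITA, the activator of MHC class II genes, had a log2 change of 0.96 that did not pass (limma adjusted p = 0.231). Immune cell markers summed to 11.9 to 18.6 CPM with siNC and 23.2 to 29.0 CPM with siKLF5, mostly from CD14, ITGAX, ITGAM and CSF1R, while PTPRC, the pan-leukocyte marker CD45, had 4 counts over the 6 libraries. Fibroblast and endothelial markers summed to 13.0 to 18.1 CPM with siNC and 17.0 to 26.4 CPM with siKLF5, and the part of either in these results was not tested. Of 4 immune markers tested 1 rose, ITGAM (0 without siKLF5 A, B or C or without siNC A or C), and of 5 fibroblast or endothelial markers 1 rose, VWF, for which the limma adjusted p was 0.133 without siKLF5 A, 0.0501 without siKLF5 C and 0.0749 without siNC C. Of 9 squamous markers 2 rose and 6 fell. The shares over all genes, 15.3% higher and 10.8% lower, stand beside these marker counts as well. In HCC95 immune markers summed to 3.02 to 4.35 CPM with Empty, 4.27 to 5.04 with WT and 5.93 to 7.20 with E419Q. Fibroblast and endothelial markers summed there to 12.9 to 16.2, 13.3 to 19.1 and 29.0 to 30.3 CPM in the same order. VWF alone averaged 11.8, 14.1 and 27.1 CPM, and the part of these markers in the HCC95 results was not tested.

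Genes known to act on CD274 transcription or on the PD-L1 protein were read from 24 regulators, all tested. With siKLF5 10 rose and 3 fell (15.3% and 10.8% of all genes), with a median of 0.19. FOSL1, an AP-1 subunit, fell from 2815 ± 116 to 1198 ± 43.1 units (-1.23, SE 0.0786, limma adjusted p = 4.59e-09). MYC (-0.49) and CDK4 (-0.51), the kinase of the G1 phase, fell too. WWTR1, the YAP-related coactivator TAZ, rose from 572 ± 94.8 to 1519 ± 107 units (1.42, SE 0.126, limma adjusted p = 2.75e-07). HIP1R (0.80), which routes PD-L1 to lysosomes, and B4GALT1 (0.52), a galactosyltransferase, rose.

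Around IDO1, 21 of 23 genes of tryptophan uptake, the kynurenine pathway and its sensors were tested in BICR31. Of these 6 rose and 3 fell with siKLF5 (15.3% and 10.8% of all genes). The median was 0.18, and with single libraries left out it ran from 0.076 (without siKLF5 B) to 0.35 (without siKLF5 A), with 0.082 without siNC A and 0.085 without siNC C. It was 0.073 after quantile normalisation and 0.11 by edgeR on the estimated counts. SLC7A5, which imports tryptophan and other large amino acids, fell from 27176 ± 1107 to 12983 ± 20.6 units (-1.06, SE 0.0384, limma adjusted p = 5.94e-12), and its partner chain SLC3A2 (-0.56) fell too. KMO, the next oxygenase of the kynurenine pathway, rose from 52.9 ± 3.07 to 255 ± 55.9 units (2.23, SE 0.306, limma adjusted p = 3.52e-05). AHR, the receptor that binds kynurenine, rose from 763 ± 74.1 to 1454 ± 203 units (0.92, limma adjusted p = 1.85e-05), and its target CYP1A1 (1.48) rose. EIF2AK4, the kinase GCN2 that senses a lack of amino acids, fell (-0.66). TDO2, the alternative first enzyme, had 9 counts over the 6 BICR31 libraries, and IDO2 and ACMSD had 0 in all 12.

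**Figure D4:**
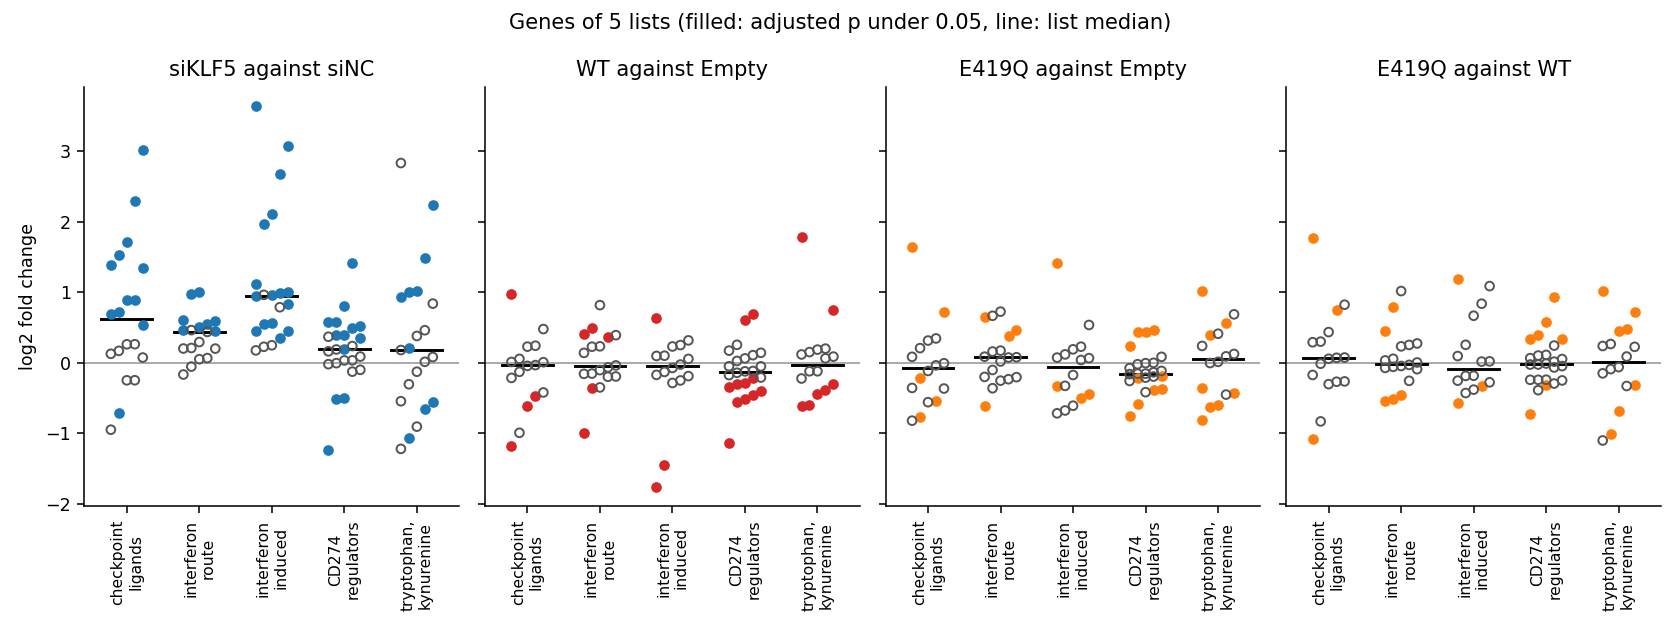
Log2 fold change (y axis) of each tested gene in 5 lists (x axis) for the 4 comparisons, filled where the adjusted p was under 0.05, with a line at each list's median. With siKLF5 the medians of the checkpoint ligands (0.62) and interferon induced genes (0.95) lie above 0, and in the 3 HCC95 panels the list medians lie between -0.16 and 0.08.

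In HCC95 the same lists went both ways, and single libraries decided several calls; an adjusted p after a library is the edgeR value without it. With WT against Empty 1 of 16 checkpoint ligands rose and 3 fell (10.8% and 12.1% of all genes). C10orf54 rose from 31.5 ± 2.37 to 62.6 ± 3.91 CPM (0.97, SE 0.117, edgeR adjusted p = 2.25e-06), opposite in sign to its change with siKLF5. PVR (-0.61), a ligand of TIGIT and CD226, fell from 68.7 ± 0.584 to 45.5 ± 2 CPM, LGALS9 (-1.18) fell from 15.6 ± 0.801 to 6.83 ± 1.22 CPM, and CD47 (-0.47) fell, a call lost without Empty B (0.123). Of 16 interferon induced genes 1 rose, PSMB9 (0.64), an immunoproteasome subunit, and 2 fell, BST2 (-1.76; 0.0526 without Empty A, 0.0907 without WT A) and CD74 (-1.45; 0.0779 without Empty A, 0.145 without WT B). In the interferon route 3 of 18 rose (1 without WT A or without WT B) and 2 fell, STAT3 (-0.36) and its feedback inhibitor SOCS3 (-0.99; 0.0732 without WT B). DESeq2 called 0 rises and 0 falls among the interferon induced genes, with an adjusted p of 0.0629 for PSMB9 and none given for BST2 and CD74. In the route it called 0 rises and 1 fall, and not SOCS3 (0.0586). The rises that edgeR called in the route were IFNAR1, IRF1 and TYK2. IRF1 averaged 30.9 ± 3.53 CPM with Empty and 41.0 ± 2.66 with WT, while CD274 was lower with WT. By DESeq2 the IRF1 log2 change was 0.40 (DESeq2 adjusted p = 0.336). The medians of these lists were near 0 and moved with single libraries. The ligands had -0.04 (-0.19 without WT A, -0.079 without WT B, -0.0032 without a low-count filter), the induced genes -0.05 (-0.023 without Empty A, -0.026 without Empty B, -0.083 without WT B) and the route -0.05 (0.038 without WT A).

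Of the 24 regulators of CD274, 2 rose and 9 fell with WT (5 without WT B), with a median of -0.13. Among all genes tested with WT against Empty 10.8% rose and 12.1% fell. FOSL1 fell from 104.7 ± 3.95 to 48.6 ± 11.3 CPM (-1.13, SE 0.139, edgeR adjusted p = 3e-06), as it did with siKLF5. EGFR, the growth factor receptor, rose from 545 ± 112 to 841 ± 17.9 CPM (0.61, SE 0.0826, edgeR adjusted p = 1.15e-05), CMTM4 (0.69), which protects PD-L1 from breakdown, rose, and B4GALT1 (-0.55) fell. In the tryptophan and kynurenine list 5 of 16 fell and 2 rose, or 1 without any 1 of Empty A, Empty B, WT A, E419Q A and E419Q B. KYNU, kynureninase, fell from 42.6 ± 5.69 to 28.1 ± 0.825 CPM (-0.60; DESeq2 adjusted p = 0.0563), ATF4 (-0.45), a factor of the amino acid response, and CYP1B1 (-0.62) fell, and AHRR (1.79), the repressor of AHR, rose.

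With E419Q against Empty, which shares the Empty libraries with the comparison above, 2 of 16 checkpoint ligands rose (1 without Empty B) and 3 fell, against 10.4% and 10.8% of all genes. PVRL2 rose from 43.9 ± 0.194 to 73.7 ± 8.88 CPM (0.72, SE 0.111, edgeR adjusted p = 5.31e-05), and CD47 (-0.78) and PVR (-0.54) fell. Of the interferon induced genes 1 rose, GBP4 (1.41), from 5.15 ± 0.129 to 13.8 ± 2.02 CPM, and 3 fell (1 without any 1 of E419Q A, E419Q B and Empty B), among them WARS (-0.50), the tryptophanyl-tRNA synthetase. In the interferon route 3 rose (1 without E419Q A or without Empty B) and 1 fell (0 without E419Q A). Of the regulators 4 rose (2 without E419Q A or without Empty A) and 6 fell (3 without E419Q B), with HIF1A (0.44), the hypoxia factor, up and JUN (-0.75) down. In the tryptophan and kynurenine list 3 rose and 5 fell: AHR (0.56) rose, and SLC7A5 (-0.62), SLC3A2 (-0.43), ATF4 (-0.60) and TIPARP (-0.81), an AHR target, fell. The medians moved with single libraries in 4 of the 5 lists. The ligands had -0.08 (0.030 without E419Q A, -0.24 without E419Q B, -0.13 without Empty A, 0.00063 without Empty B), and the induced genes -0.07 (-0.30 without E419Q A, -0.12 without E419Q B, -0.16 without Empty A, -0.045 without Empty B). The route had 0.08 (0.013 without E419Q A, 0.019 without E419Q B, 0.048 without Empty A), the regulators -0.16, and the tryptophan and kynurenine list 0.05 (0.018 without E419Q A, 0.085 without E419Q B, 0.080 without Empty A, 0.031 without Empty B). Without a low-count filter the ligands had -0.024, the induced genes -0.24 and the tryptophan and kynurenine list -0.013. The ligands had -0.030 with a filter at 1 CPM in 2 libraries, and the induced genes -0.17 with only the 4 libraries compared in the fit.

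Between E419Q and WT 2 of 16 checkpoint ligands were higher with E419Q (1 without E419Q B, WT A or WT B) and 1 lower, against 4.41% and 3.59% of all genes. Of the regulators 5 were higher (3 without any 1 of the E419Q and WT libraries) and 2 lower (1 without E419Q B or WT A), and of the tryptophan and kynurenine genes 4 were higher and 3 lower. In the interferon route 2 were higher (1 without E419Q A, E419Q B or WT B) and 3 lower (1 without E419Q A or E419Q B, 0 without WT B), and of the interferon induced genes 1 was higher (0 without E419Q B or WT A) and 2 lower (0 without any 1 of the E419Q and WT libraries). C10orf54 stood at 29.9 ± 1.47 CPM with E419Q against 62.6 ± 3.91 with WT (-1.09, SE 0.124, edgeR adjusted p = 1.94e-06). PVRL2 was higher with E419Q (0.75, SE 0.113, edgeR adjusted p = 8.01e-05). FOSL1 stood at 93.9 ± 22.7 with E419Q and 48.6 ± 11.3 CPM with WT (0.94, SE 0.146, edgeR adjusted p = 0.000118), and STAT3 at 195.6 ± 0.301 and 141.8 ± 6.49 CPM (0.45, edgeR adjusted p = 0.000213). EGFR was lower with E419Q (516 ± 11.2 against 841 ± 17.9 CPM, -0.72, edgeR adjusted p = 2.39e-06). Of the AHR-related genes CYP1B1 (1.01) and AHR (0.44) were higher and TIPARP (-1.01) lower, KYNU (0.72) was higher and the importer SLC7A5 (-0.68) lower with E419Q.

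The genes around CD274 on chromosome 9 were read alongside it. RefSeq places PLGRKT before CD274 and PDCD1LG2, RIC1 (KIAA1432 in the files) and ERMP1 after it. Of 18 listed neighbours 12 were tested in HCC95, and with edgeR 0 were called for WT against Empty, with 5 higher and 0 lower at an unadjusted p under 0.05 and 0 by DESeq2; 1 was called higher without Empty B. For E419Q against WT 0 were called by edgeR, with 1 higher and 0 lower at an unadjusted p under 0.05 and 0 by DESeq2. Over all genes edgeR called 22.9% for WT against Empty and 8% for E419Q against WT. JAK2 had log2 differences of 0.82 with WT and 0.72 with E419Q against Empty (edgeR adjusted p = 0.111 and 0.187), neither of which passed. For E419Q against Empty 1 rose (2 without Empty B) and 1 fell. In that comparison 10.4% of all genes rose and 10.8% fell. ERMP1 rose (0.50, edgeR adjusted p = 0.000684), from 62.95 ± 1.01 to 90.5 ± 0.591 CPM. UHRF2 fell (-0.47, edgeR adjusted p = 0.0242), a call lost by DESeq2 (0.309) and without E419Q A (0.133), E419Q B (0.098) or Empty B (0.164). With siKLF5 1 of 11 tested neighbours rose (0 without siKLF5 B, siNC A or siNC B, and 0 after quantile normalisation) and 1 fell, RCL1 (-0.78), which lost its call without siNC C (0.0592). Among all genes 15.3% rose and 10.8% fell with siKLF5. The list's median was -0.14 (-0.24 without siNC B), and it was positive without siKLF5 B (0.067), siKLF5 C (0.22) or siNC A (0.16) and with a pseudocount of 8 (0.11), no filter (0.020) or a mean of at least 50 units (0.020).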

How the data were processed

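Poly(A) RNA of 12 libraries from 2 human cell lines was analysed, grouped by the labels: BICR31 with siNC or siKLF5 (3 each) and HCC95 with Empty, WT or E419Q (2 each). Reads were aligned with STAR and quantified with RSEM on hg19, as the submitters' processing notes state without versions. For HCC95 the authors deposited RSEM expected counts per gene, with TPM and FPKM columns as RSEM writes them, per the file headers; FPKM was not used. For BICR31 the authors deposited a normalised signal whose scaling is not documented. Its upper quartile lay at 983 to 992 units in each library, and division by the smallest step gave whole numbers, within 0.02, for 81.7% to 82.7% of values, which is how counts were estimated. Whether counting used strand is not documented, so reads of overlapping genes cannot be told apart.

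The members and the 10 gene lists (185 entries, 2 not matched and 1 left out for its 2 IDs) were chosen with earlier results of these data known. The lists were checkpoint ligands, checkpoint receptors, the interferon gamma route, interferon gamma induced genes, regulators of CD274, tryptophan and kynurenine genes, neighbours of CD274, and markers of immune cells, of fibroblasts and endothelium, and of squamous epithelium. Up to 6 called genes per list and comparison with the smallest adjusted p are named, and JAK2, IRF1, CIITA and TDO2 always. Some genes that this rule covers are not reported here.

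Limma 3.58.1 with an intensity trend was applied to log2(signal + 1) in BICR31, where 15710 genes averaged 10 units or more. For HCC95, rounded expected counts of 12933 genes entered edgeR 4.0.16 (quasi-likelihood, TMM, filterByExpr) with all 6 libraries fitted together. P-values are two-sided and were adjusted by Benjamini-Hochberg over every gene tested, with 0.05 as the threshold. For low genes a fold change on log2(signal + 1) depends on the pseudocount and can differ from the ratio of counts. For IDO1 it was 33.2-fold, against a count ratio of 25.3. Methods were tested on simulated counts with a fixed spread and with changes planted only in genes above a minimum mean count. Those simulations do not bear on genes at lower counts, such as PDCD1LG2. Alternatives were a pseudocount of 8, other filters, quantile normalisation, edgeR on the estimated BICR31 counts, DESeq2 1.42.0, its size factors in edgeR, only the libraries compared, a replicate block, and each library left out. Libraries of a group differed by more than counting noise, with a chi-square of 1.22 to 1.88 per degree of freedom, against 5.80 to 9.88 between groups, and each counted as a replicate of its own. R 4.3.3 and Python 3.11.15 were used.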

Additional observations from a re-analysis of the deposited data

Results flagged for a closer look

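The difference between the effects of E419Q and WT, each against the same Empty libraries, was tested as E419Q against WT, with edgeR and an adjusted p under 0.05. The 23 genes given are, for each of the 5 lists plotted, those that passed, up to the 6 smallest adjusted p. Numbers after a gene are log2 differences, E419Q minus WT, and those after a library are the adjusted p without it. Of the genes known to act on CD274 or the PD-L1 protein, EGFR (-0.72), WWTR1 (0.58), FOSL1 (0.94) and HIF1A (0.34) kept the call with each library left out. MYC (-0.32) lost it without E419Q B (0.0961) and WT A (0.0613), and B4GALT1 (0.33) without E419Q A (0.0656), E419Q B (0.123), WT A (0.0823) and WT B (0.0845).

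Among the checkpoint ligands, C10orf54 (-1.09) and PVRL2 (0.75) kept the call, and VTCN1 (1.77), at 54 counts against 18, lost it without E419Q B (0.12), WT A (0.0605) and WT B (0.054). In the interferon route STAT3 (0.45) kept it. IFNGR1 (-0.55) lost it without E419Q A (0.224) and WT B (0.0994), and IFNGR2 (-0.46) without E419Q A (0.129), E419Q B (0.128) and WT B (0.242). IRF1 (-0.51) lost it without E419Q B (0.28), WT A (0.191) and WT B (0.0618), and SOCS3 (0.79) without E419Q A (0.0957), E419Q B (0.272) and WT B (0.419). Of the interferon induced genes, GBP4 (1.18) lost it without E419Q B (0.125) and WT A (0.0772). PSMB9 (-0.57) lost it without E419Q A (0.116), E419Q B (0.0742), WT A (0.0574) and WT B (0.1), and WARS (-0.33) without E419Q A (0.105), E419Q B (0.192), WT A (0.118) and WT B (0.128).

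Of the tryptophan and kynurenine genes, TIPARP (-1.01), SLC7A5 (-0.68), CYP1B1 (1.01), NQO1 (0.47), AHR (0.44) and KYNU (0.72) kept the call with each library left out. DESeq2 did not call GBP4, PSMB9, WARS, IFNGR1, IFNGR2, IRF1, SOCS3, VTCN1 or B4GALT1.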

How the results depend on the processing

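No alternative reversed a called result. DESeq2 called fewer genes than edgeR: 1137 for WT against Empty, 1169 for E419Q against Empty and 467 for E419Q against WT, in place of 2962, 2737 and 1034. By DESeq2 the interferon route had 0 rises with WT and 0 with E419Q against Empty, in place of 3 each, and the regulators had 5 falls with WT in place of 9. Leaving out single libraries gave 1719 (without WT A) to 2792, 1626 (without E419Q B) to 2603, and 597 (without E419Q A) to 1172 genes. IDO1 in BICR31 had a log2 difference of 3.61 with a pseudocount of 8. On TPM, CD274 differed by -1.44 (WT against Empty), -0.53 (E419Q against Empty) and 0.91 (E419Q against WT), and CD276 by 0.091 (WT against Empty) and -0.27 (E419Q against WT). For the members in E419Q against WT an edgeR test had been planned. It is no independent support, since these libraries took part in the choice of members: CD274 did not pass (adjusted p = 0.0696), except without a low-count filter (2.13, adjusted p = 0.043), and CD276 did not pass (adjusted p = 0.165). Leaving out single libraries, CD274 ranged from -3.58 to -3.30 for WT and from -1.80 to -0.94 for E419Q against Empty, and CD276 from -0.077 to 0.083 for WT against Empty, positive without Empty B. CD274 did not pass the filter with only the E419Q and WT libraries in the fit, which gave no value. The replicate letters did not pair the libraries (correlations of same-letter deviations -0.033 to 0.059), and a replicate block gave 4076, 2900, 2686 and 987 calls in the 4 comparisons and ended 1 of 135 named calls. DESeq2 ended 26 of 93 named HCC95 calls for which it gave an adjusted p, and the cause was not tested. With 2 to 3 libraries a group and 0 to 58 summed counts a group for 3 of the 4 members, depth limits every fold of CD274, PDCD1LG2 and IDO1.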
